A study of Homo sapiens with 8 samples.

Results

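The genes CDKN1A, CDKN1B, CDKN2A and CDKN2B encode inhibitors of cyclin-dependent kinases. Their chromatin was examined in a pair of established human lymphoma lines, HT and SUDHL6, both derived from diffuse large B cell lymphoma and cultured without any perturbation. Trimethylated lysine 4 of histone H3 (H3K4me3), trimethylated lysine 27 of histone H3 (H3K27me3) and the methyltransferase EZH2 were each profiled by ChIP-seq in 1 library per line, which gives 6 lists of enriched regions, called islands. An island belonged to a gene when it lay within 5 kb of the gene's hg19 interval. The intervals were chr6:36644237-36655116 for CDKN1A, chr12:12870058-12875305 for CDKN1B and the joint interval chr9:21967751-22009312 for the neighbours CDKN2A and CDKN2B. By this rule 16 of the 58757 deposited islands belonged to the 4 genes: 9 of H3K4me3, 5 of H3K27me3 and 2 of EZH2. The lists hold between 1506 (SUDHL6 EZH2) and 16919 islands (HT H3K27me3). With no replicate of any library, no difference between the lines was tested, and a gene without an island may still carry the mark below the calling threshold. The sequencing depth is unknown.

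CDKN1A (p21) and CDKN1B (p27) belong to the Cip/Kip family, which binds complexes of cyclins with cyclin-dependent kinases. CDKN2B (p15INK4b) and the p16INK4a product of CDKN2A belong to the INK4 family, which binds CDK4 and CDK6. CDKN2A has a further start site that gives p14ARF, an inhibitor of the ubiquitin ligase MDM2 and so a stabiliser of p53, and CDKN1A is a classical target gene of p53. H3K4me3 marks promoters that are active or ready for activation. EZH2 carries the methyltransferase activity of Polycomb repressive complex 2, which deposits H3K27me3 at silenced genes, and the INK4 locus and CDKN1A are known Polycomb targets in many cell types. Promoters that carry both histone marks are called bivalent when both lie on the same nucleosomes or the same alleles, which lists of islands cannot show.

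The promoter windows of the 4 genes are shown because the islands below differ between them, in particular between the start sites of CDKN2A and CDKN2B. RefSeq's table gave 5 windows, which matched all 4 genes, with 2 for CDKN2A. The outer start of CDKN2A, nearer to CDKN2B, is that of p14ARF and the inner start is that of p16INK4a. Each window holds 250 bases before and 50 after the start, read 5′ to 3′ along the gene's strand, with CG dinucleotides in capitals. Their positions are those of GRCh38.p14 and cannot be set against the hg19 positions of islands.
CDKN1A (GRCh38.p14, chr6:36678464-36678763, plus strand): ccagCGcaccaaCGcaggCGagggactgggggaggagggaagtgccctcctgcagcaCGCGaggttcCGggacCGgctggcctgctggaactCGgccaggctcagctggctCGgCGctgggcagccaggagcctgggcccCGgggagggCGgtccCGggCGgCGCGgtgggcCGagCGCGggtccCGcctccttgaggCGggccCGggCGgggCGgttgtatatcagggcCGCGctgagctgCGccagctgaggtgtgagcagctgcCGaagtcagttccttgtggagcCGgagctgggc
CDKN1B (GRCh38.p14, chr12:12717118-12717417, plus strand): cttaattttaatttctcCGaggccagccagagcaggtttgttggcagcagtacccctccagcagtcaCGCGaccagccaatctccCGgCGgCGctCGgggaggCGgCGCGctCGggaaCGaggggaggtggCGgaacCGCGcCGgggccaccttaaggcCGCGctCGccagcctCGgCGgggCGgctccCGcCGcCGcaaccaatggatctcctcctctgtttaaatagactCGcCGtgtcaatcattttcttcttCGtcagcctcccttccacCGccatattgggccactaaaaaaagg
CDKN2A, outer start (GRCh38.p14, chr9:21995275-21995574, minus strand): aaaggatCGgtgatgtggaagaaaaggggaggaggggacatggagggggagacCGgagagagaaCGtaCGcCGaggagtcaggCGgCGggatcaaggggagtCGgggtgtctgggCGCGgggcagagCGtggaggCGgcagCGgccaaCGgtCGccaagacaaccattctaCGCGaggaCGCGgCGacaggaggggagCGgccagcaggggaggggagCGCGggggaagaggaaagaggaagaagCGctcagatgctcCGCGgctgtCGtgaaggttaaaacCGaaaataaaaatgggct
CDKN2A, inner start (GRCh38.p14, chr9:21974808-21975107, minus strand): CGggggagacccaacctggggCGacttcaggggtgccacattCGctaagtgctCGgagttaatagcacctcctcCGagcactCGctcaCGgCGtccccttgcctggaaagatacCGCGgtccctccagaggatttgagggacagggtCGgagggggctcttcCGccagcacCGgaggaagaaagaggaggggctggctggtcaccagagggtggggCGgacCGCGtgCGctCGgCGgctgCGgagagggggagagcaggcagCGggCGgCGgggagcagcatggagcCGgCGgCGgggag
CDKN2B (GRCh38.p14, chr9:22009256-22009555, minus strand): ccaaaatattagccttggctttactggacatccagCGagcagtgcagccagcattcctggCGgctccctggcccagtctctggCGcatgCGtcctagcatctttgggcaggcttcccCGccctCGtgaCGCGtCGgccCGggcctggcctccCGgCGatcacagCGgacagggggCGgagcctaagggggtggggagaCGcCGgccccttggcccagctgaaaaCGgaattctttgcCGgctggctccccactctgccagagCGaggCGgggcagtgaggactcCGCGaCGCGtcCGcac

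All 5 windows were rich in CG dinucleotides, sites of DNA methylation that cluster in CpG islands. The number was 29 at CDKN1A, 29 at CDKN1B, 28 at the outer and 26 at the inner start of CDKN2A, and 25 at CDKN2B, against a median of 14 over 35116 RefSeq promoter windows. Windows with at least as many made up from 24.2% of all windows for CDKN1A and CDKN1B to 32.0% for CDKN2B. The GC share ran from 62.3% at CDKN1B to 74.3% at CDKN1A, with a median of 58.7% over all windows. The GC box, GGGCGG on either strand, occurred 4 times at CDKN1A, once at CDKN1B, not at all at the outer CDKN2A start and 2 times each at the inner CDKN2A start and CDKN2B, and 45.0% of all windows held at least one. The 5 starts thus lay between 25 and 29 in CG number. A relation of CG number, GC share or GC boxes to the islands was not tested.

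CDKN1A was the only one of the 4 genes with EZH2 within 5 kb, and it had EZH2 and H3K27me3 in both lines. H3K4me3 was present in SUDHL6 and had no island in HT. Islands were thus found in 5 of the 6 lists. Windows as long as CDKN1A with its flanks (20.9 kb), laid end to end over chromosomes 1 to 22, gave the general frequency of islands. H3K4me3 was present in 7.65% of windows in HT and 9.54% in SUDHL6, H3K27me3 in 10.3% and 7.55%, and EZH2 in 2.10% and 1.28%. These windows were laid without regard to genes, so they say how common islands are in the genome and not at promoters. Over the gene itself the H3K27me3 island was wider in HT and the EZH2 island wider in SUDHL6.

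In HT, H3K27me3 formed an island of 7.8 kb over CDKN1A, chr6:36643801-36651600, which began 436 bp before the gene interval and covered 67.7% of it. Its score, the authors' own value per island, whose unit is not given, was 232, and 2.70% of the islands in that list scored as high or higher. Another HT H3K27me3 island of 6.6 kb (score 127) ended 3586 bp before the gene. In SUDHL6 the H3K27me3 island over CDKN1A spanned 5.4 kb, chr6:36643501-36648900, with a score of 232, and 4.47% of its list scored as high. It covered 42.9% of the gene interval, and a further island of 1.8 kb (score 74) ended 1336 bp before the gene. The islands of both lines over the gene shared 5100 bp and lay over its upstream part. Scores were not compared between lines, so the equal values of 232 carry no comparison.

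EZH2 in HT formed an island of 4.35 kb over CDKN1A, chr6:36645151-36649500, with a score of 68. It lay wholly within the HT H3K27me3 island. Its width was shared or exceeded by 37.1% of the HT EZH2 list and its score by 32.2%. In SUDHL6 the EZH2 island over CDKN1A spanned 12.9 kb, chr6:36640801-36653700, with a score of 258. It held 81st place by width and 49th by score among 1506 SUDHL6 EZH2 islands and covered 87.0% of the gene interval. The whole HT EZH2 island and both SUDHL6 H3K27me3 islands lay inside it.

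H3K4me3 at CDKN1A was found in SUDHL6 as an island of 4.8 kb, chr6:36646351-36651150, with a score of 115. It began 2114 bp inside the gene interval. In the RefSeq table of GRCh38.p14 the start whose window is printed above lies 2251 bp inside CDKN1A, so by distance the island begins near that start and extends into the gene. This island was wide but of low density, with 24.0 score units per kb, a value reached by 65.3% of the SUDHL6 list, while 6.06% of the list was as wide. It was present among the 50% of the list with the highest scores and dropped out among the 50% with the highest score per kb. The SUDHL6 H3K27me3 island over CDKN1A was dense, with 43.0 score units per kb, reached by 0.395% of its list. In HT the nearest H3K4me3 islands ended 80.4 kb before CDKN1A, at chr6:36561151-36563850, and began 184 kb after it, at chr6:36839551-36843300.

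The 3 SUDHL6 islands over CDKN1A overlapped each other. SUDHL6 H3K4me3 and H3K27me3 shared 2550 bp, which is 53.1% of the H3K4me3 island, and EZH2 covered all of these bases. In HT the same stretch had H3K27me3 over its full 4800 bp and EZH2 over 3150 bp. The SUDHL6 H3K4me3 island of CDKN1A thus lay wholly on bases with H3K27me3 in HT.

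**Figure D1:**
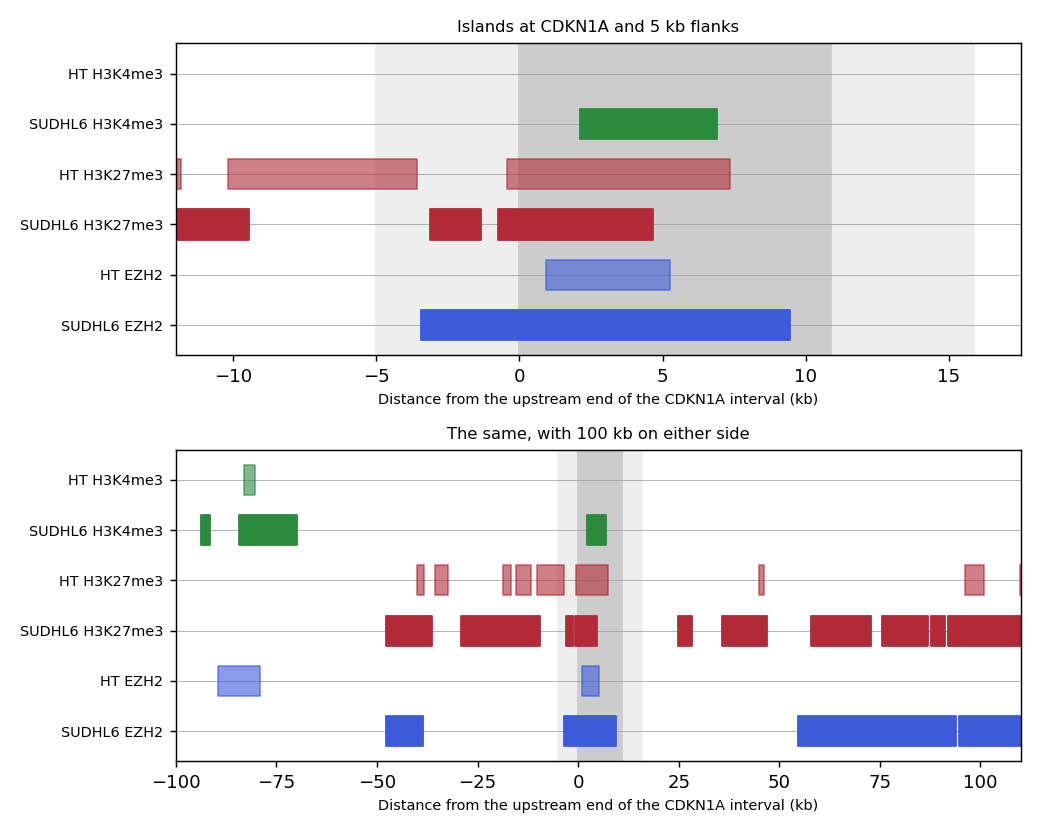
Islands at CDKN1A by line and antibody, as bars against the distance from the upstream end of the gene interval in kb (dark grey, gene; light grey, 5 kb flanks; pale bars, HT; full bars, SUDHL6). The upper panel shows EZH2 and H3K27me3 of both lines and H3K4me3 of SUDHL6 over the gene, and the lower panel shows the islands up to 100 kb away.

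The state of CDKN1A was set beside all H3K4me3 regions of chromosomes 1 to 22, formed by merging overlapping H3K4me3 islands of both lines. Of 15897 such regions, 5414 had H3K4me3 in SUDHL6 and none in HT, and 13 of these had H3K27me3 and EZH2 in both lines, as CDKN1A did. That is 0.0818% of all regions. Seen from EZH2, 289 of 2508 HT EZH2 islands on these chromosomes overlapped EZH2 of SUDHL6, and 187 of them also overlapped H3K27me3 of both lines. Among the 187, H3K4me3 lay in SUDHL6 and not in HT at 15, CDKN1A included, in HT and not in SUDHL6 at 6, in both at 16 and in neither at 150. Most EZH2 islands shared by the lines thus had H3K27me3 in both, as at CDKN1A, and few had H3K4me3 in SUDHL6 alone. This comparison was chosen after the state of CDKN1A was known.

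Within 5 Mb of CDKN1A islands were dense in every list. H3K27me3 islands numbered 216 in HT and 204 in SUDHL6, which is 3.69 and 4.47 times the number per Mb of chromosomes 1 to 22. The ratio was 2.64 and 4.41 for EZH2 and 2.23 and 2.27 for H3K4me3. The median SUDHL6 H3K27me3 island in this neighbourhood had 24.7 score units per kb, against 20.2 in the whole list and 43.0 for the island over CDKN1A. The part of this regional density in the marks of CDKN1A was not tested.

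CDKN1B carried H3K4me3 over its upstream end in both lines, and no H3K27me3 or EZH2 island overlapped the gene interval in either. H3K27me3 lay directly upstream in HT and had no island nearby in SUDHL6. Counting the flanks, 3 of the 6 lists had an island at CDKN1B. In windows of the length of CDKN1B with flanks (15.2 kb), H3K4me3 was present in 6.0% in HT and 7.46% in SUDHL6, H3K27me3 in 8.41% and 6.37%, and EZH2 in 1.65% and 1.02%. A lack of EZH2 islands, as at CDKN1B, is thus the usual state of a window laid without regard to genes.

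The H3K4me3 island over CDKN1B began at the same base in both lines, 507 bp before the gene interval. It spanned 2.55 kb in HT, chr12:12869551-12872100, with a score of 103, and 3 kb in SUDHL6, chr12:12869551-12872550, with a score of 139. Of each list, 35.7% in HT and 23.5% in SUDHL6 was as wide. The covered share of the CDKN1B interval was 38.9% and 47.5%. The H3K4me3 islands over the CDKN1B interval thus differed between the lines in position at their downstream end only.

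Downstream of CDKN1B a second group of H3K4me3 islands lay within the flank. HT had an island of 3.45 kb (score 144) that began 1145 bp after the gene. SUDHL6 had islands of 1.8 kb (score 31) and 1.2 kb (score 54) in the same stretch, separated by 600 bp. All ended at or before position 12879900, which is 9842 bp from the upstream end of the CDKN1B interval. In the RefSeq table of GRCh38.p14 the next gene downstream is APOLD1 (after a lncRNA locus), and its first start lies 8549 bp from the CDKN1B start, a distance from the upstream end of the CDKN1B interval that falls inside the HT island and in the gap between the SUDHL6 islands. These islands lie beyond the end of the CDKN1B interval. They cannot be assigned to one of CDKN1B, the lncRNA locus and APOLD1. In all, 6.0 kb of CDKN1B with flanks was covered by H3K4me3 in each line, with 5400 bp in common.

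The HT H3K27me3 island upstream of CDKN1B spanned 5.85 kb, chr12:12864001-12869850, with a score of 121, and 11.3% of the HT list scored as high. It ended 207 bp before the gene interval and shared its last 300 bp with the first bases of the H3K4me3 island. GPR19 is the neighbour on this side, with 121 bp between it and CDKN1B in the RefSeq table. By these distances the whole island lies past the near end of GPR19, so that at least its last bases lie over GPR19. It covers no base of the CDKN1B interval. Whether it bears on CDKN1B as well was not tested. Of the 7779 regions with H3K4me3 in both lines, 92 (1.18%) likewise overlapped H3K27me3 of HT and no H3K27me3 of SUDHL6 or EZH2 of either line. The downstream region of CDKN1B, with H3K4me3 in both lines and neither of the other marks, had the most usual state, shared by 6625 of the 7779 (85.2%).

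**Figure D2:**
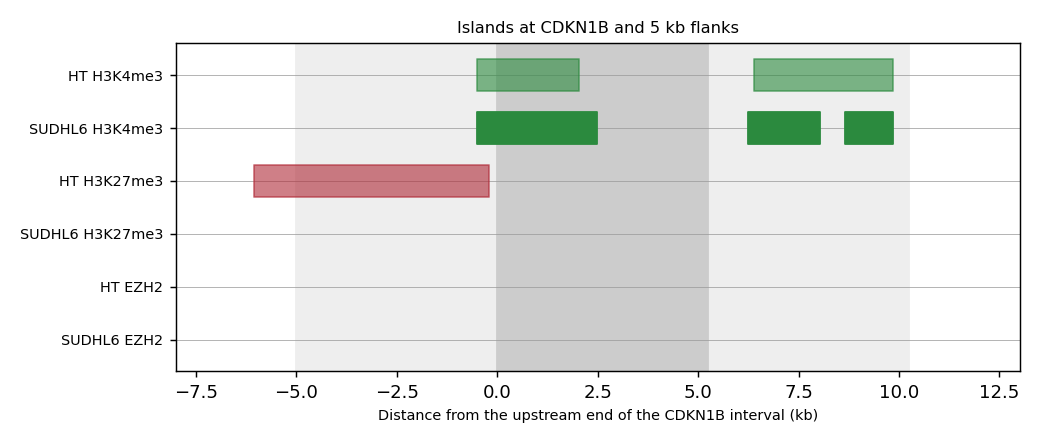
Islands at CDKN1B against the distance from the upstream end of the gene interval in kb (dark grey, gene; light grey, 5 kb flanks). H3K4me3 lies over the upstream end and in the downstream flank in both lines, HT H3K27me3 ends 207 bp before the gene, and the remaining 3 rows are empty.

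The nearest islands of the lists without one were far from CDKN1B. EZH2 of HT lay 104 kb before the gene (chr12:12763501-12766050, score 40) and 1534 kb after it. EZH2 of SUDHL6 lay 4748 kb before and 1642 kb after it. H3K27me3 of SUDHL6 lay 4322 kb before and 13378 kb after CDKN1B, so that 17.7 Mb of chromosome 12 around the gene, chr12:8548501-26253300, held 0 SUDHL6 H3K27me3 islands. The same stretch held 57 H3K27me3 islands in HT. It held 15 EZH2 islands in HT and 1 in SUDHL6, and 38 H3K4me3 islands in HT and 48 in SUDHL6. The stretch was bounded by the nearest SUDHL6 H3K27me3 islands, so its count of 0 follows from how it was chosen. The SUDHL6 H3K4me3 list was not empty in it.

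Within 5 Mb of CDKN1B the number of H3K27me3 islands per Mb was 0.786 times that of chromosomes 1 to 22 in HT and 0.110 times in SUDHL6. H3K4me3 had 0.788 and 0.607 times, and EZH2 1.15 and 0.384 times.

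The joint interval of CDKN2A and CDKN2B had H3K4me3 in both lines. It had no H3K27me3 or EZH2 island in either line, over the genes or within 5 kb. The H3K4me3 island common to both lines lay inside the joint interval, and a second one, at its CDKN2B end, was found in SUDHL6. Islands were thus found in 2 of the 6 lists. In windows of 51.6 kb, the length of the joint interval with flanks, H3K4me3 was present in 15.5% in HT and 19.2% in SUDHL6, H3K27me3 in 18.0% and 12.6%, and EZH2 in 4.47% and 2.56%. A lack of H3K27me3 and EZH2 islands is thus the usual state of a window of this length laid without regard to genes.

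The common H3K4me3 island of the CDKN2A and CDKN2B interval spanned 3.6 kb in HT, chr9:21993301-21996900, with a score of 173, and 4.65 kb in SUDHL6, chr9:21992101-21996750, with a score of 302. The islands shared 3450 bp, 95.8% of the HT island. They ranked high in their lists, with 4.79% of HT and 1.59% of SUDHL6 H3K4me3 islands scored as high, above every other H3K4me3 island of the 4 genes in either list. The second SUDHL6 island, chr9:22007251-22009800, spanned 2.55 kb with a score of 70, which 44.1% of the list reached, and it too dropped out among the 50% with the highest score per kb. It ran from 2061 bp inside the joint interval to 488 bp beyond its upper end, where CDKN2B, read on the minus strand, begins.

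Distances between start sites placed these islands. In the RefSeq table of GRCh38.p14 the CDKN2B start lies 13981 bp from the outer CDKN2A start, that of p14ARF, and 34448 bp from the inner start, that of p16INK4a. From the lower end of CDKN2A to the upper end of CDKN2B the table has 41562 bases, the length of the hg19 interval. In SUDHL6 the centres of the islands lay 14100 bp apart, close to the distance between the CDKN2B and p14ARF starts. Measured downward from the upper end of the interval, the HT copy of the common island covered the stretch between 12412 and 16011 bp, and the SUDHL6 copy that between 12562 and 17211 bp. No island of any list lay from there to the lower end, the stretch that by these distances holds the p16INK4a start. The printed window of this start holds 26 CG dinucleotides, against 25 at CDKN2B, and a relation of these numbers to the islands was not tested. The antisense gene CDKN2B-AS1 starts 533 bp from the p14ARF start on the opposite strand, so the common island cannot be assigned to one of them.

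**Figure D3:**
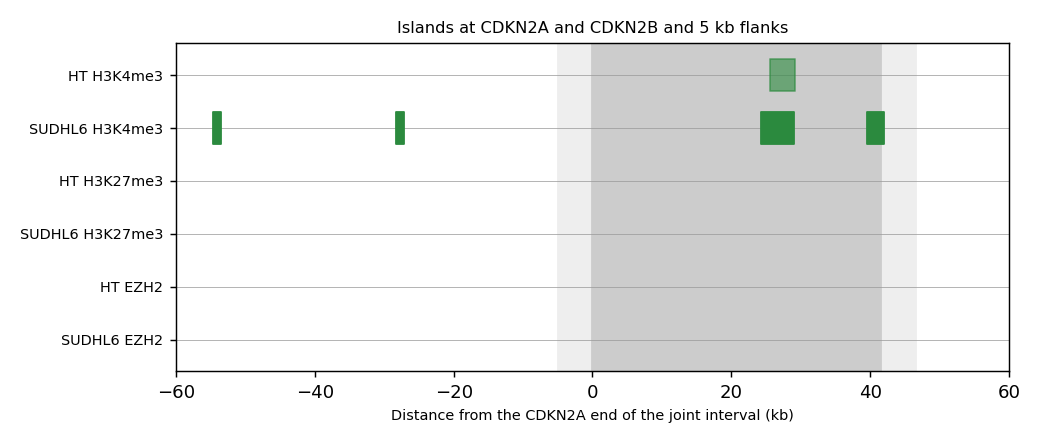
Islands at CDKN2A and CDKN2B against the distance from the CDKN2A end of the joint interval in kb (dark grey, interval; light grey, 5 kb flanks). H3K4me3 of both lines lies between 24.4 and 29.1 kb, a second SUDHL6 island lies at the CDKN2B end, and the H3K27me3 and EZH2 rows are empty.

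The nearest H3K27me3 islands to CDKN2A and CDKN2B in HT ended 218 kb below the interval and began 96.8 kb above it, the latter at chr9:22106101-22108500 with a score of 40. In SUDHL6 they lay 167 kb below and 4752 kb above. EZH2 was farther, at 1282 kb below and 5519 kb above in HT and at 6555 kb below and 10516 kb above in SUDHL6. HT had no other H3K4me3 island within 164 kb below or 2565 kb above the joint interval. SUDHL6 had small H3K4me3 islands of 1.2 kb at 27.1 kb and 53.5 kb below CDKN2A, with scores of 25 and 30.

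Of the 15897 merged H3K4me3 regions, 6625 (41.7%) shared the state of the p14ARF region, with H3K4me3 in both lines and no other mark. The state of the CDKN2B region, H3K4me3 in SUDHL6 alone with no other mark, was shared by 4868 (30.6%). H3K4me3 in SUDHL6 without HT is thus frequent, and the CDKN2B island scored near the middle of its list. Within 5 Mb of CDKN2A and CDKN2B, H3K4me3 islands numbered 15 in HT and 40 in SUDHL6, or 0.406 and 0.864 times the number per Mb of chromosomes 1 to 22. H3K27me3 had 16 and 11 islands, 0.272 and 0.240 times, and EZH2 had 2 and 0. The fewer HT H3K4me3 islands around the locus stand beside the missing HT island at CDKN2B, and their part in it was not tested.

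**Figure D4:**
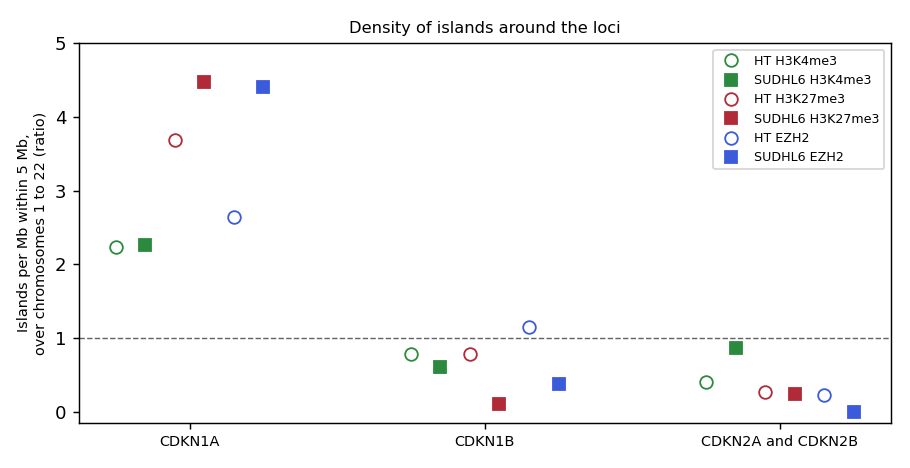
Number of islands per Mb within 5 Mb of each locus, divided by that of chromosomes 1 to 22 for the same list (open circles, HT; filled squares, SUDHL6; dashed line, ratio of 1). CDKN1A lies above 1 in all 6 lists, CDKN2A and CDKN2B below 1 in all 6, and SUDHL6 H3K27me3 is at 0.110 around CDKN1B.

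The 4 genes differed in the marks found. EZH2 was confined, among these 4 genes and 6 lists, to CDKN1A, with 4.35 kb in HT and 12.9 kb in SUDHL6. H3K27me3 covered 9.21 kb of CDKN1A with flanks in HT and 7.20 kb in SUDHL6, 4.79 kb upstream of CDKN1B in HT, and nothing at CDKN2A and CDKN2B. H3K4me3 was found in both lines at CDKN1B and at the p14ARF region of CDKN2A. At CDKN1A and at CDKN2B it was found in SUDHL6 and not in HT, with 4.80 kb and 2.55 kb. No H3K4me3 island of these genes was found in HT without an overlapping one of SUDHL6. The H3K4me3 list of SUDHL6 was the longer one (13736 islands against 10914). The SUDHL6 islands at CDKN1A and CDKN2B held ranks 2852 and 5981 by score in it, and both were lost among the 50% with the highest score per kb. With the lists cut by score to the same number of islands in both lines, both were kept, as these ranks alone require. SUDHL6 H3K4me3 then had 1 island at CDKN1A and 2 at CDKN2A and CDKN2B, and HT had 0 and 1. The cut is therefore no check on the difference between the lines. What gives this difference was not tested.

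**Figure D5:**
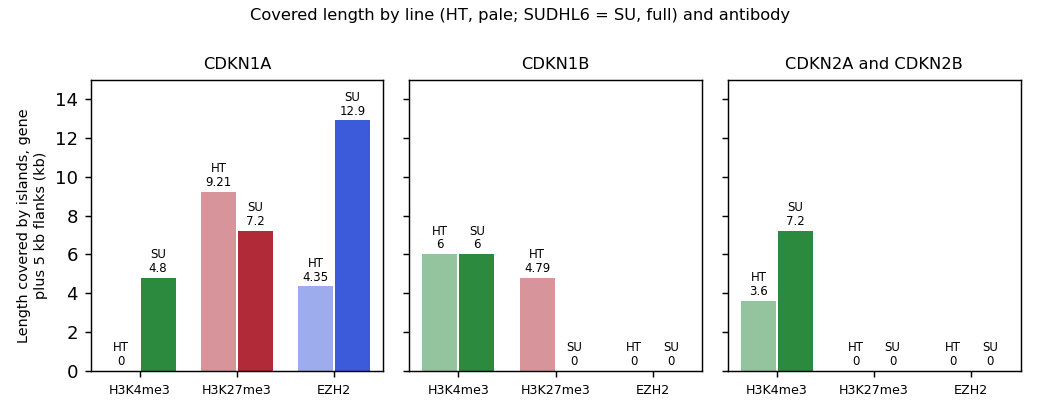
Length covered by islands in each gene interval with 5 kb flanks, in kb, by antibody (pale bars and HT, HT; full bars and SU, SUDHL6; the number over each bar is its height, from 1 library). EZH2 is seen at CDKN1A alone, with 4.35 kb in HT and 12.9 kb in SUDHL6, and CDKN2A and CDKN2B have H3K4me3 alone.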

How the data were processed

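ChIP-seq of H3K4me3, H3K27me3 and EZH2 in HT and SUDHL6 gave 6 island lists, 1 per library, so islands were not called on pooled samples. The 2 input samples were not used here. Per the submitters' processing notes, SICER and hg19 were used, and the file names as deposited record 150 bp windows, 450 bp gaps and 1E-7 as FDR. Aligner, control, read filters and depth are not given in the sources used here. Each list holds chromosome, start, end and a whole-number score deposited by the authors. What it counts was not given, and it was used within its list only. The H3K27me3 lists carry another normalization tag than the others, so levels were not compared between antibodies.

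Positions are counted from 1. Overlap meant at least 1 bp. Widths, shared bases, ranks, nearest islands and window shares were computed with Python 3.11.15 and numpy 2.4.6, drawn with matplotlib 3.10.9, and the overlap steps were tested on simulated islands with 0 wrong answers. All 4 genes are named, and the members and lists were chosen with earlier results of these data known. Positions on hg19 were used for these 4 genes only, so planned counts for other cell cycle genes and B cell markers were not run. Sequences, neighbouring genes and distances between starts are from RefSeq (GRCh38.p14). The alternatives were flanks of 0, 10 and 50 kb, the 50% of each list highest in score or in score per kb, islands of at least 1 kb, equal numbers of islands in both lines, islands within 5 kb joined, and 50% of the island inside.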

Additional observations from a re-analysis of the deposited data

How the results depend on the processing

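Islands were found in 5 lists at CDKN1A, 3 at CDKN1B and 2 at CDKN2A and CDKN2B. These numbers of lists stayed within 1.5 times under all 9 alternatives, with the change from 3 to 2 at CDKN1B on that bound. The measure is coarse, since a list counts while any island stays and wider flanks or joining cannot lower the number. At CDKN1A the number was 4 among the 50% of islands with the highest score per kb, where the SUDHL6 H3K4me3 island dropped out and its overlap with H3K27me3 went from 2550 to 0 bp. The score per kb setting also removed the SUDHL6 island at CDKN2B. It took HT H3K27me3 at CDKN1A from 2 islands to 1 and SUDHL6 H3K4me3 at CDKN1B from 3 to 2. The SUDHL6 H3K4me3 islands at CDKN1A and CDKN2B were present among the 50% with the highest scores. In that setting SUDHL6 H3K4me3 at CDKN1B went from 3 islands to 1. With no flank, CDKN1B had islands in 2 lists, and the 300 bp shared by H3K4me3 and H3K27me3 in HT became 0, since they lie outside the gene interval. Over the 3 loci and 6 lists, 149 of 162 covered lengths under the alternatives stayed within 1.5 times of those reported. This count includes lists that were empty at a locus, where 0 bp stayed 0 bp under every alternative. The share among lists with an island is therefore lower. No paired analysis was possible because each line and antibody had 1 library. Without known depth, a missing island cannot be told apart from a mark below the threshold.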

Other observations

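H3K27me3 around CDKN1A covered more in SUDHL6 than in HT on both sides of the gene, and EZH2 chiefly after it. In the 100 kb after the CDKN1A interval, SUDHL6 had 62.9 kb of H3K27me3 where HT had 7.07 kb, and SUDHL6 had 55.7 kb of EZH2 where HT had 0 kb. In the 100 kb before it, SUDHL6 had 33.7 kb and HT 17.8 kb of H3K27me3, while EZH2 was nearly equal at 12.7 kb and 10.5 kb. The gene's own downstream part was free of H3K27me3 in both lines, and the next island above CDKN1A began 14034 bp after it in SUDHL6 (chr6:36669151-36672600) and 34.1 kb after it in HT (chr6:36689251-36690450). The next EZH2 island above CDKN1A began 43.7 kb after it in SUDHL6 and 446 kb after it in HT. Neither line had an H3K4me3 island in the 100 kb after CDKN1A.

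Before CDKN1A, both lines had H3K4me3 near the same position. It spanned 2.7 kb in HT (chr6:36561151-36563850, score 133) and 14.4 kb in SUDHL6 (chr6:36559951-36574350, score 835). HT EZH2 overlapped this HT H3K4me3 island (chr6:36554701-36565200, score 100), and no SUDHL6 EZH2 island lay there.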
